A study of Mus musculus with 11 samples.

Results

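Fc receptors and the adaptors that carry immunoreceptor tyrosine-based activation motifs (ITAMs) are described here across sorted regulatory T cells (Tregs) of spleen and tumor. The members are 7 genes taken by symbol: the Fc gamma receptor genes Fcgr1, Fcgr2b, Fcgr3 and Fcgr4, the adaptor genes Fcer1g and Tyrobp, and the kinase gene Syk. The deposited values list 14604 genes and hold all 7. All 7 were also among the 13897 genes tested, those whose log2(n + 1) averaged 0.5 or more, where n is the deposited abundance of a gene in a library. The rule takes symbols and uses no measured value, but the members were chosen with earlier results of these data known. Counts of members called are therefore not those of a family picked blind.

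Tregs were sorted as live CD4+GITR+CD25+ cells from MC38 tumors and from spleens of the same mice, and ribosomal RNA was removed before their RNA was sequenced. MC38 is a mouse colon adenocarcinoma line, and all the mice of the 11 libraries carried it as an implant. The labels give the wild type (WT) as CD177flox/flox, with 3 spleen and 3 tumor libraries, and the Treg knockout (KO) as CD177flox/flox/FOXP3-CreYFP, with 3 spleen and 2 tumor libraries. The floxed allele is thus shared by both genotypes, and Foxp3 drives the Cre, so the deletion is limited to cells that have expressed Foxp3. The labels give no age or treatment, and they do not say whether replicates came from separate animals, so p-values measure the spread between libraries. Cd177 is not among the listed genes, so it offers no check of the genotype labels.

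Fc gamma receptors bind the constant part of IgG and so tie antibodies to the cells that carry them. The activating receptors signal through the Fc receptor gamma chain, the product of Fcer1g, whose ITAM tyrosines are phosphorylated by SRC family kinases and then bound by the tandem SH2 domains of SYK. DAP12, the product of Tyrobp, does the same for another set of receptors, while FcγRIIB, the product of Fcgr2b, carries an inhibitory motif (ITIM) that recruits a lipid phosphatase. The family is known for its expression in macrophages, monocytes, neutrophils, dendritic cells, NK cells and, for Fcgr2b and Syk, B cells. T cells use the CD3 zeta chain, encoded by Cd247, and the SYK relative ZAP-70 in the corresponding places.

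The motifs that divide the members are shown here as coding sequence from the GENCODE M21 transcripts on GRCm38, with the codons of the motif tyrosines in capitals. The ITAM pattern, a pair of tyrosines each followed at the third place by leucine or isoleucine, was found in the coding sequences of Fcer1g and Tyrobp and in none of the other 5. In Fcer1g it spans residues 65 to 79 and lies in 2 exons within chr1:171229889-171230072 on the minus strand. In Tyrobp it spans residues 92 to 106 and lies in 2 exons within chr7:30415670-30417382 on the plus strand. The ITIM of Fcgr2b covers residues 317 to 322 at chr1:170961071-170961088 on the minus strand. The letters of the ITIM pattern also occurred in the coding sequences of 4 other members (Fcgr1, Fcgr4, Fcer1g and Tyrobp), where they were not examined further.
Fcer1g ITAM: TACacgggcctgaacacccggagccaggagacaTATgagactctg
Tyrobp ITAM: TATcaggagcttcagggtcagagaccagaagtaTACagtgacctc
Fcgr2b ITIM: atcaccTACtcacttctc

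Facts of the whole table bear on how these values can be read. Summed over genes, n came to between 712832 and 844331 in spleen libraries and between 1103159 and 1304548 in tumor libraries, and how n was scaled from the reads is not stated, so the number of reads behind a value is not known although the methods give an approximate sequencing depth. Whether n was divided by transcript length is not known either, so the level of a gene is compared between libraries and not with the level of another gene. The median tested gene was 0.08 higher in tumor as deposited and 0.44 lower (-0.44) after the library totals had been made equal. Here and below, values with ± are means and SDs. Among the sorted population's own markers, Foxp3 was 6.35 ± 0.30 over the 6 spleen libraries and 5.50 ± 0.55 over the 5 tumor libraries on the log2(n + 1) scale.

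Libraries also differed in markers of other cells, taken from lists chosen with earlier results of these data known. A list of 16 macrophage and monocyte markers had a summed n of 318 to 597 in the spleen libraries and of 13000 to 18800 in the tumor libraries, with none of the 16 at 0, and 16 of 16 rose in tumor with a median difference of 4.73. Spleen KO replicate 2 and spleen WT replicate 1 were highest among the spleen libraries for this sum, at 9.15 and 9.22 on the log2 scale against 8.32 to 8.65 in the other 4. Tumor WT replicate 1 was the lowest of the tumor libraries at 13.67. In these bulk samples a larger share of cells of one type and more RNA per cell cannot be told apart.

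All 7 members were higher in the tumor libraries than in the spleen libraries, the inhibitory receptor gene Fcgr2b by the most and Syk by the least. The call of a rise, limma with a Benjamini-Hochberg adjusted p below 0.05, held for 7 of 7 members, while 43.1% of all tested genes were called higher in tumor and 35.9% lower. The lowest tumor library exceeded the highest spleen library for 7 of 7 members, against 35.2% of all tested genes. The median difference over the members was 5.0, and it was 0.08 over all genes tested.

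**Figure D1:**
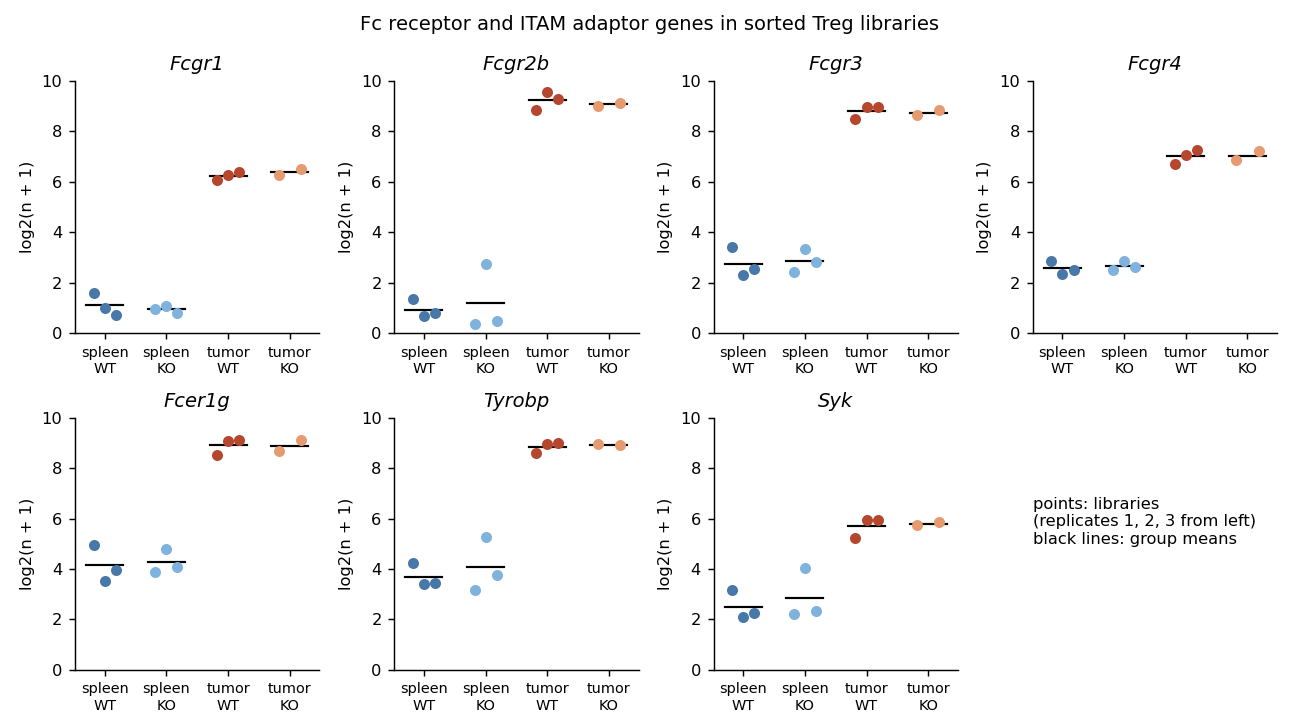
Each panel plots the log2(n + 1) of 1 gene in the 11 libraries, grouped by tissue and genotype, with points for libraries in replicate order and black lines for group means. For each of the 7 genes the tumor libraries sit above all spleen libraries, while WT and KO libraries of a tissue overlap, and spleen WT replicate 1 and spleen KO replicate 2 are the 2 highest spleen points.

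Among the activating receptors, Fcgr1 encodes the high-affinity IgG receptor FcγRI. It lies on chromosome 3 of GRCm38 at 96282909 to 96293969 (minus strand). In spleen its log2(n + 1) was 0.73 at the lowest, 0.98 at the median and 1.58 at the highest. Tumor WT libraries had 6.09, 6.26 and 6.39, and tumor KO libraries had 6.28 and 6.49. The tissues were thus separated by a gap of 4.51, and a median n of 0.972 in spleen stood against 76.8 in tumor. The difference was 5.28 (standard error 0.14, adjusted p = 1.37e-11, limma with Benjamini-Hochberg adjustment).

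Fcgr3 encodes FcγRIII, the low-affinity activating receptor. Its spleen values ran from 2.31 through a median of 2.69 to 3.40. Tumor WT libraries had 8.49, 8.96 and 8.96, and tumor KO libraries had 8.65 and 8.84. No tumor library came within 5.08 of the highest spleen library. Fcgr3 rose by 5.97 (standard error 0.20, adjusted p = 5.59e-11, limma with Benjamini-Hochberg adjustment), from a median n of 5.47 to 458.

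Fcgr4 encodes FcγRIV, the activating receptor that binds IgG2 subclasses. Spleen values were close together, between 2.35 and 2.87 with a median of 2.57. Tumor WT libraries reached 6.72, 7.07 and 7.28, and tumor KO libraries 6.86 and 7.21. The rise of 4.41 (standard error 0.12, adjusted p = 1.74e-11, limma with Benjamini-Hochberg adjustment) was the smallest among the 4 receptor genes, and it carried the smallest standard error of the 7 members.

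Fcgr2b, the inhibitory receptor gene, had the largest difference of the 7. Its spleen values were 0.35 at the lowest and 0.73 at the median, and spleen KO replicate 2 stood above the rest at 2.74. Tumor WT libraries had 8.87, 9.55 and 9.29, and tumor KO libraries had 9.01 and 9.14. The gap between the tissues was 6.13. The difference was 8.11 (standard error 0.35, adjusted p = 5.15e-10, limma with Benjamini-Hochberg adjustment), and by its size it ranked 7 among the 13897 tested genes. The median n was 0.66 in spleen and 565 in tumor, so the log2(n + 1) scale compresses the spleen end, and the difference was 9.16 with a pseudocount of 0.1 and 6.52 with a pseudocount of 5.

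The adaptor gene Fcer1g was already measured at moderate levels in spleen, from 3.53 through a median of 4.02 to 4.93. Tumor WT libraries had 8.53, 9.08 and 9.11, and tumor KO libraries had 8.69 and 9.10. It rose by 4.70 (standard error 0.23, adjusted p = 1.47e-09, limma with Benjamini-Hochberg adjustment), and its lowest tumor library was 3.60 above its highest spleen library.

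Tyrobp, which encodes DAP12, ran from 3.16 through 3.60 at the median to 5.27 in spleen, with spleen KO replicate 2 the highest. Tumor WT libraries had 8.59, 8.94 and 8.98, and tumor KO libraries had 8.95 and 8.91. These 5 libraries were tight apart from tumor WT replicate 1. The difference of 5.0 (standard error 0.31, adjusted p = 9.32e-09, limma with Benjamini-Hochberg adjustment) was close to that of Fcer1g.

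Syk, the kinase that docks on phosphorylated ITAMs, moved least. Spleen values were 2.08 at the lowest, 2.31 at the median and 4.02 at the highest, again in KO replicate 2. Tumor WT libraries had 5.23, 5.94 and 5.95, and tumor KO libraries had 5.73 and 5.85. The tissues stayed apart by 1.21. Syk rose by 3.06 (standard error 0.31, adjusted p = 1.15e-06, limma with Benjamini-Hochberg adjustment). For each of the 7 members an exact two-sided permutation test of 5 tumor against 6 spleen libraries gave p = 0.0043, the smallest this design allows.

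The order of the differences, from Fcgr2b through Fcgr3, Fcgr1, Tyrobp, Fcer1g and Fcgr4 to Syk, held neighbours that their 95% confidence intervals do not separate. The intervals were 4.97 to 5.58 for Fcgr1, 4.34 to 5.66 for Tyrobp, 4.20 to 5.21 for Fcer1g and 4.14 to 4.68 for Fcgr4. The interval of Fcgr2b, 7.34 to 8.88, lay above that of Fcgr3, 5.54 to 6.40, and that of Syk, 2.38 to 3.74, lay below that of Fcgr4.

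T-cell counterparts of the adaptor and the kinase went the other way. Cd247 fell from 7.01 ± 0.06 over the 6 spleen libraries to 5.74 ± 0.26 over the 5 tumor libraries, a difference of -1.27 (standard error 0.10, adjusted p = 1.08e-07, limma with Benjamini-Hochberg adjustment). Zap70 went from 6.97 ± 0.16 to 6.23 ± 0.33, a difference of -0.75 (standard error 0.13, adjusted p = 0.000189, limma with Benjamini-Hochberg adjustment). Ptprc, which encodes the leukocyte antigen CD45, fell by 1.15 from 9.56 to 8.41.

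Within a library, the difference of 2 genes on the log2 scale largely cancels a common scaling factor where both lie well above 1, and 6 such differences were compared between the tissues. Fcer1g minus Cd247 was -2.82 ± 0.56 over the 6 spleen libraries and 3.16 ± 0.52 over the 5 tumor libraries, a shift of 5.98. Syk minus Zap70 was -4.30 ± 0.84 over the 6 spleen libraries and -0.49 ± 0.60 over the 5 tumor libraries, a shift of 3.81. In neither did the libraries of the tissues overlap. This follows from the single genes. Every tumor library exceeded every spleen library for Fcer1g and Syk and lay below every one for Cd247 and Zap70.

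The balance of the receptor genes also shifted toward the inhibitory one. Fcgr3 minus Fcgr2b was 1.75 ± 0.61 over the 6 spleen libraries and -0.39 ± 0.12 over the 5 tumor libraries, a shift of -2.14. Fcgr4 minus Fcgr2b moved by -3.70, from 1.55 ± 0.74 to -2.14 ± 0.21, and Fcgr1 minus Fcgr2b by -2.83, from -0.04 ± 0.82 to -2.87 ± 0.25. Each of these 5 shifts separated the tissues without overlap (exact two-sided permutation test, p = 0.0043 each, 0.0052 after Benjamini-Hochberg adjustment over the 6). For Fcer1g minus Cd247 and Syk minus Zap70 this p follows from the separation of the single genes and is no added support. Since Fcgr1 and Fcgr2b had n near or below 1 in most spleen libraries, the shift of Fcgr3 minus Fcgr2b ranged from -2.99 with a pseudocount of 0.1 to -1.2 with a pseudocount of 5.

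For the pair of adaptors, Tyrobp minus Fcer1g, no such shift was found. It was -0.32 ± 0.45 over the 6 spleen libraries and -0.03 ± 0.19 over the 5 tumor libraries, with overlapping libraries and a difference of 0.29 (exact two-sided permutation test, p = 0.23). This depended on spleen KO replicate 2, without which the difference was 0.45 with an adjusted p of 0.024 from the exact permutation test. Leaving out spleen WT replicate 1 as well gave 0.40 (adjusted p = 0.048, exact permutation test).

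**Figure D2:**
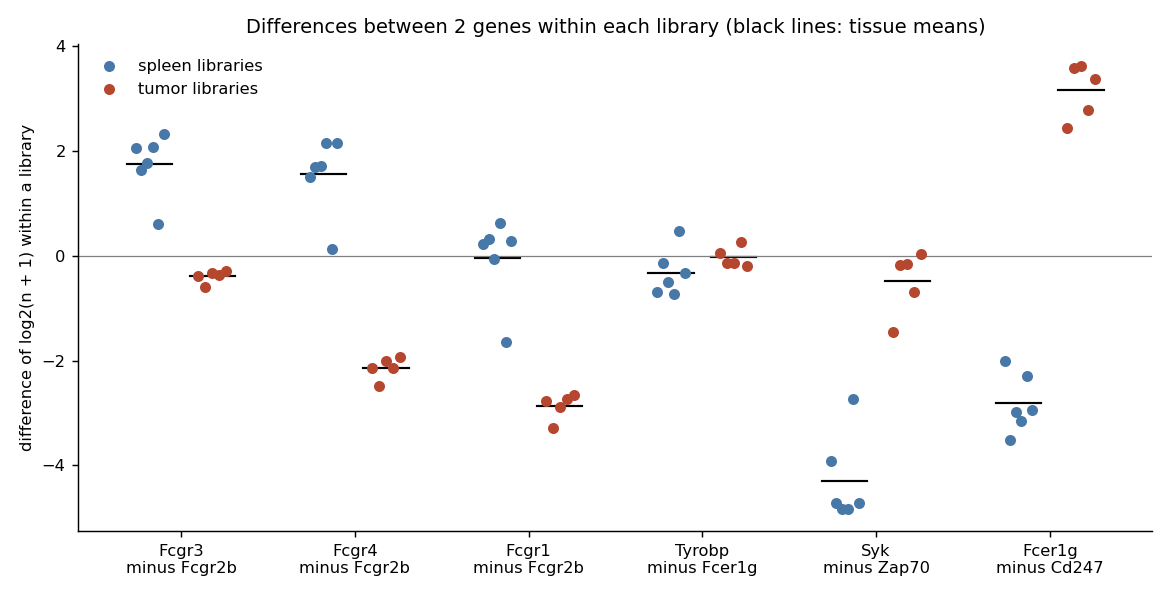
The vertical axis gives the difference of log2(n + 1) between 2 genes within a library, with blue points for 6 spleen and red points for 5 tumor libraries and black lines for tissue means. In 5 of the 6 differences the tissues are separated, and for Tyrobp minus Fcer1g they overlap.

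No member differed detectably between the genotypes. In WT mice the tumor-against-spleen differences ran from 3.21 for Syk to 8.30 for Fcgr2b, and 7 of 7 were called higher, as were 39.2% of all tested genes. In KO mice they ran from 2.93 for Syk to 7.88 for Fcgr2b, and 7 of 7 were called, against 36.2% of all tested genes. The interaction of tissue and genotype was called for 0 of 7 members and for 0% of all genes by limma, with 0 members and 383 genes at an unadjusted p under 0.05. Its largest value among the members was that of Fcgr2b, -0.42 (95% confidence interval -2.13 to 1.3, limma), and its tightest that of Fcgr4, -0.09 (-0.69 to 0.51).

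Between genotypes in one tissue the values were near 0 and the intervals wide. In spleen, KO minus WT was called for 0 of 7 members and for 0% of all genes by limma, with 0 members and 281 genes at an unadjusted p under 0.05. Member differences in spleen lay between -0.15 for Fcgr1 (95% confidence interval -0.59 to 0.29) and 0.37 for Tyrobp (-0.60 to 1.33). In tumor it was called for 0 of 7 members, against 0.0072% of all genes, a single gene outside the family, and 0 members and 634 genes had an unadjusted p under 0.05. The tumor differences lay between -0.16 for Fcgr2b (-1.44 to 1.12) and 0.14 for Fcgr1 (-0.36 to 0.63). With 2 KO tumor libraries, a change within these intervals could have gone undetected.

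Within a tissue the libraries at the ends of the range were the same for the members and for the macrophage and monocyte markers, at the high end in spleen and at the low end in tumor. Spleen KO replicate 2 and spleen WT replicate 1 were the 2 highest spleen libraries for 7 of 7 members and for the marker sum. Fcgr2b, for example, was 2.74 and 1.34 in them and 0.35 to 0.79 in the other 4, Syk was 4.02 and 3.16 against 2.08 to 2.35, and Tyrobp was 5.27 and 4.24 against 3.16 to 3.76. In tumor, WT replicate 1 was the lowest library for 7 of 7 members and for the marker sum. These orders are a description of 6 and 5 libraries, and the part of the marker-bearing cells in the members' levels was not tested. The share of all tested genes with the same orders was not counted, so the orders are not shown to be particular to the members.

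Since these 2 spleen libraries were the highest for each member, leaving them out must enlarge the tissue difference. The larger tissue difference is therefore no added support. It was then 8.60 for Fcgr2b (standard error 0.14), 6.25 for Fcgr3, 5.43 for Fcgr1, 5.44 for Tyrobp, 5.04 for Fcer1g, 4.53 for Fcgr4 and 3.52 for Syk (standard error 0.15), and 7 of 7 members were called by limma. KO minus WT in spleen then lay between -0.31 for Fcgr2b and 0.24 for Fcer1g, and 0 of 7 members were called.

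**Figure D3:**
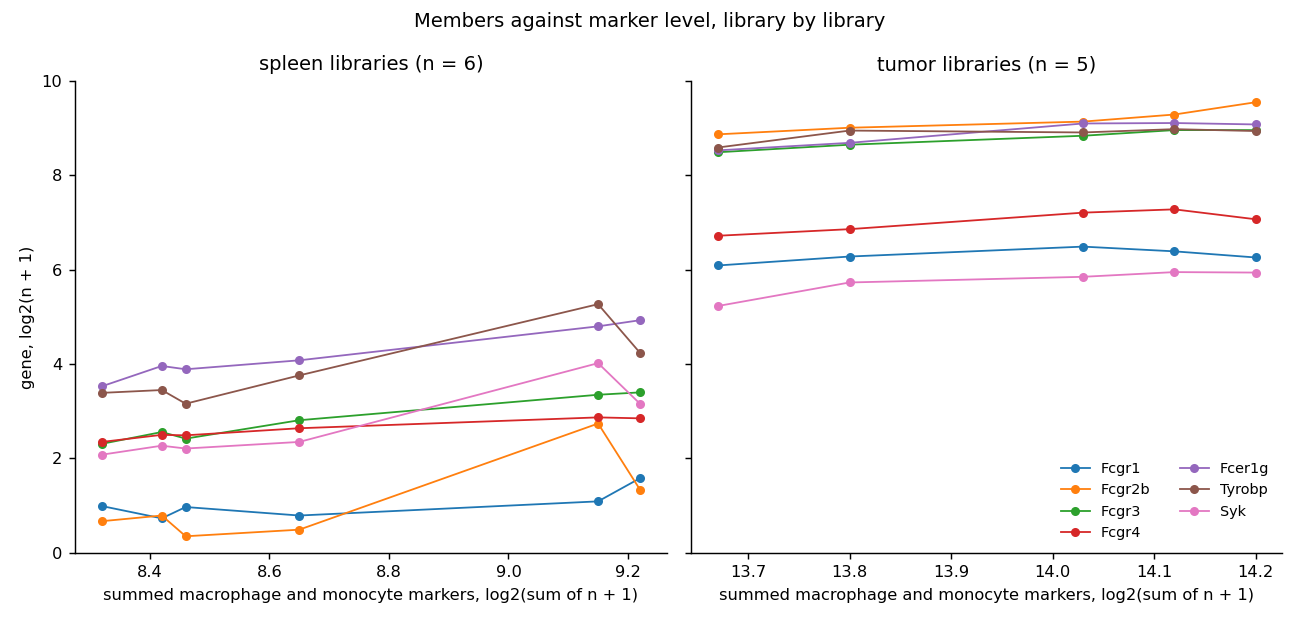
The horizontal axis gives the log2 of the summed n of 16 macrophage and monocyte markers in a library and the vertical axis the log2(n + 1) of each member, with 1 line per gene joining 6 spleen libraries (left) or 5 tumor libraries (right). The 2 spleen libraries near 9.2 hold the 2 highest values of each line, and the tumor library at 13.67 the lowest.

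Set against the marker sum within each library, the members parted. Markers with the largest n weigh most in that sum. The 16 markers' own tissue differences ran from 2.26 to 8.19, and those of the members, 3.06 to 8.11, lay within that range. A gain or loss is therefore against the sum and not against each marker. Fcgr2b gained on the sum by 2.85 between spleen and tumor and Fcgr3 by 0.71, while the shifts were -0.85 for Fcgr4, -0.55 for Fcer1g and -2.20 for Syk. Each of these 5 had an exact two-sided permutation p of 0.0043, or 0.005 after Benjamini-Hochberg adjustment over the 14 comparisons made with the marker sum and with Ptprc. For Tyrobp the shift was -0.26 (exact permutation test, p = 0.26) and for Fcgr1 0.02 (exact permutation test, p = 0.87).

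Several of these relative values depend on the pseudocount, because the members are low in spleen. The shift of Fcgr1 was 0.88 with a pseudocount of 0.1 and -1.47 with a pseudocount of 5, so its direction is not fixed by these data. Fcgr3 kept a shift of only 0.07 with a pseudocount of 5 (exact permutation test, p = 0.14), and Tyrobp had -0.61 (exact permutation test, p = 0.0043). The gain of Fcgr2b ranged from 1.28 to 3.90 and the loss of Syk from -2.82 to -1.83 over the pseudocounts and scalings tried. Against Ptprc all 7 rose, by 4.21 for Syk to 9.26 for Fcgr2b.

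Immunoglobulin transcripts were lower in tumor. Of 12 genes of constant and joining chains, only some of which encode the IgG that the Fc gamma receptors bind, 7 were listed and tested, and 7 of 7 were lower in tumor, with a median difference of -2.62. Ighg2b, the constant region of IgG2b, went from 4.32 ± 1.01 to 0.63 ± 0.33, and Igha, that of IgA, from 6.20 ± 1.2 to 3.15 ± 2.26. The summed n of these genes ran from 330 to 1290 in spleen and from 67.3 to 186 in tumor, and the highest spleen libraries were again KO replicate 2 and WT replicate 1.

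Other Fc receptors moved both ways. Of 6 tested, 1 was higher, 4 were lower and 1 was not called, with a median of -0.75. The one that rose was Fcgrt, the neonatal receptor that recycles IgG, by 3.30 (standard error 0.20). Ms4a2, the beta chain of the IgE receptor, fell by 1.66, and Fcrl1, an Fc receptor-like gene of B cells, fell by 1.79. Among 7 other signalling chains, the CD3 chains, the zeta chain, Cd79a, Cd79b and Hcst, 0 were higher, 5 were lower and 2 were not called, with a median of -0.62.

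Most of the tested receptors that signal through the members' adaptors rose. Of 10 partners of Tyrobp, 8 were higher, 0 lower and 2 not called, with a median difference of 3.30. Trem2, a lipid-sensing receptor of macrophages, rose by 6.77 (standard error 0.08) from 0.59 to 7.36, and Sirpb1c by 5.56. Of 5 partners of Fcer1g, 3 were higher, 1 was lower and 1 was not called, with a median of 2.68. Clec4e, which encodes the glycolipid receptor Mincle, rose by 6.75 and Clec4n, which encodes Dectin-2, by 5.29, while the NK receptor gene Klrb1c fell by 1.39. Among the receptors with a single ITAM-like tyrosine, Clec7a, which encodes Dectin-1, rose by 7.17 and Clec1b fell by 1.40, with 2 of 3 called higher and a median of 0.57.

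Kinases around Syk moved both ways. Of 13 tested, 7 were higher, 5 lower and 1 not called, with a median difference of 1.41. Lyn, an SRC family kinase of myeloid cells and B cells, rose by 3.01 (standard error 0.20). Lck and Fyn, the SRC family kinases of the T-cell receptor, differed by -1.28 and -1.13.

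Scaffolds and effectors downstream of SYK also moved both ways, with 13 of 22 higher, 8 lower and 1 not called and a median of 0.88. Lat2, a linker of B and myeloid cells, rose by 4.37 (standard error 0.22), while its T-cell relative Lat fell by 1.69 (standard error 0.16). Cybb, the catalytic subunit of the phagocyte NADPH oxidase, rose by 3.86, and Prkcq, the protein kinase C of the T-cell synapse, fell by 2.79.

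Most of the tested ITIM receptors rose. Of 11, 8 were higher, 1 lower and 2 not called, with a median of 2.66. Cd33 rose by 4.10 and Sirpa, the receptor for CD47, by 4.02, while Pecam1 fell by 1.72. Of 10 phosphatases and other negative regulators, 5 were higher, 2 lower and 3 not called, with a median of 0.17. Dok3, an adaptor that restrains immunoreceptor signalling, rose by 2.90 and Inppl1 by 1.57, and Cbl, a ubiquitin ligase, fell by 0.59 and Ptpn22 fell by 0.29.

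Over the 10 lists, 94 of 113 genes were tested, with 47 higher, 34 lower and 13 not called by limma with Benjamini-Hochberg adjustment, against 43.1% and 35.9% of all tested genes. Among the 81 called, equal library totals changed the direction of 3, Ncf4, Ptpn6 and Inpp5d, and quantile normalization that of 2, Ptpn6 and Inpp5d. These 3 are named because of that, after their values had been seen.

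**Figure D4:**
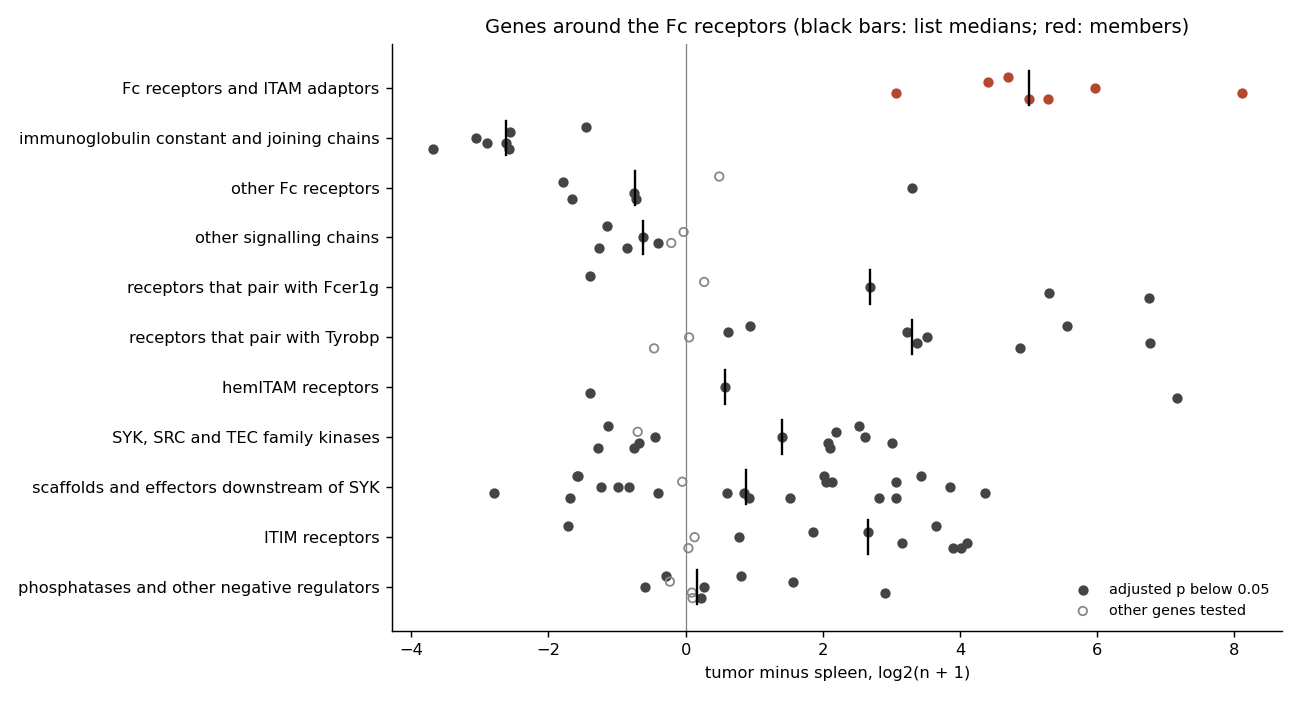
Each point is the tumor minus spleen difference of log2(n + 1) of 1 gene, arranged by list, with the 7 members in red at the top, filled points for genes with an adjusted p below 0.05 and black bars for list medians. The immunoglobulin genes lie left of 0, the members lie between 3.06 and 8.11, and the kinases and the downstream scaffolds fall on both sides.

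Markers of other cell types that can carry Fc receptors were summed in the same libraries. Of 7 tested B-cell markers, 1 was higher, 5 lower and 1 not called in tumor, their summed n was 14.1 to 61 in spleen and 7.44 to 20.5 in tumor, and KO replicate 2 and WT replicate 1 were the highest spleen libraries. Ms4a1, the gene for CD20, fell by 1.39. NK-cell markers were higher for 3 of 7, lower for 1 and not called for 3, with a summed n of 15.7 to 47.8 in spleen and 36.7 to 122 in tumor, and Ncr1 was 1.25 ± 0.69 over the 6 spleen libraries and 1.52 ± 0.34 over the 5 tumor libraries.

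For dendritic cells 6 of 8 markers were higher and 2 not called (summed n 8.97 to 23.2 in spleen and 66 to 90.5 in tumor), with Xcr1 higher by 0.29. Neutrophil markers, of which 4 of 8 were listed, were 2 higher, 1 lower and 1 not called (12.2 to 15.7 and 15.5 to 20.6), with Csf3r higher by 2.43 and Cxcr2 at a difference of -1.70. Of the 3 mast-cell and basophil markers tested, 1 rose and 2 fell, with a summed n of 6.37 to 15.2 in spleen and 4.81 to 15.2 in tumor, Kit rising by 1.63. Fibroblast markers were higher for 4 of 5 and not called for 1 (summed n 2.49 to 3.41 in spleen and 458 to 982 in tumor), with Col1a1 rising by 6.33. Erythroid and platelet markers were higher for 1 of 7 and lower for 6, with Hbb-bs falling by 3.81. The one that rose was Pf4, by 6.34, and the summed n was 85.4 to 458 in spleen and 251 to 623 in tumor.

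The T-cell list had 9 of 10 genes lower and 1 not called, and the Treg list had 2 of 6 higher, 3 lower and 1 not called, with Il2ra at 7.26 ± 0.18 over the 6 spleen libraries and 7.0 ± 0.38 over the 5 tumor libraries. Among the macrophage and monocyte markers themselves, Lyz2 went from 4.75 ± 1.18 to 12.35 ± 0.30 and Csf1r from 4.92 ± 0.54 to 8.05 ± 0.19. The part of each of these cell types in the members' differences was not tested.

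For each member the genes nearest in pattern over the 11 libraries were sought. The measure was the root mean square difference of deviations from the gene's own mean. Both tissues enter it, so it ranks genes largely by how alike their tissue differences are. The nearest to Fcgr1 was Lgmn at 0.17, followed by Basp1 at 0.21 and Apoe at 0.22. Fcgr2b had no close neighbour, with Lyz2 at 0.35, Cd14 at 0.52 and Msr1 at 0.57. Fcgr3 was nearest to Thbs1 at 0.24, C3ar1 at 0.28 and Lgals3 at 0.29.

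Fcgr4 lay at 0.13 from Adam9 and at 0.14 from Litaf and Grn, and Fcer1g at 0.17 from Ifitm3 and at 0.20 from Lrp1 and Mrc1. Tyrobp lay at 0.13 from Ctsh, 0.27 from Ifitm3 and 0.28 from Cd74. Syk was at 0.14 from Plcg2, 0.22 from Dok3 and 0.24 from Nfam1. The nearest other member was farther for each, from 0.28 between Fcgr4 and Fcer1g to 1.14 between Fcgr2b and Fcgr3. The nearest genes were sought among all tested genes and the nearest member among the other members alone. A farther member therefore shows no lack of likeness within the family. The tissue differences of Fcgr2b and Fcgr3 were themselves unlike, at 8.11 and 5.97. All the matches named had tissue differences of their own, from 2.81 for Nfam1 to 8.19 for Cd14.

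On the genome 4 of the members are neighbours. On chromosome 1 of GRCm38, Fcgr2b lies at 170958617 to 170976547 (minus strand), Fcgr4 at 171018920 to 171029761 (plus strand), Fcgr3 at 171051174 to 171064935 (minus strand) and Fcer1g at 171229572 to 171234365 (minus strand), a span of 275.7 kb. Tyrobp is on chromosome 7 at 30413760 to 30417585 and Syk on chromosome 13 at 52583173 to 52648792, both on the plus strand. Among the 13 other protein-coding genes tested in this span and within 100000 bases of it, 6 were higher, 3 lower and 4 not called. The largest of their differences was 1.77 for Adamts4 (standard error 0.13), a neighbour named after its value had been seen. Each of the 4 members in the cluster differed by more than each of these 13 neighbours.

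**Figure D5:**
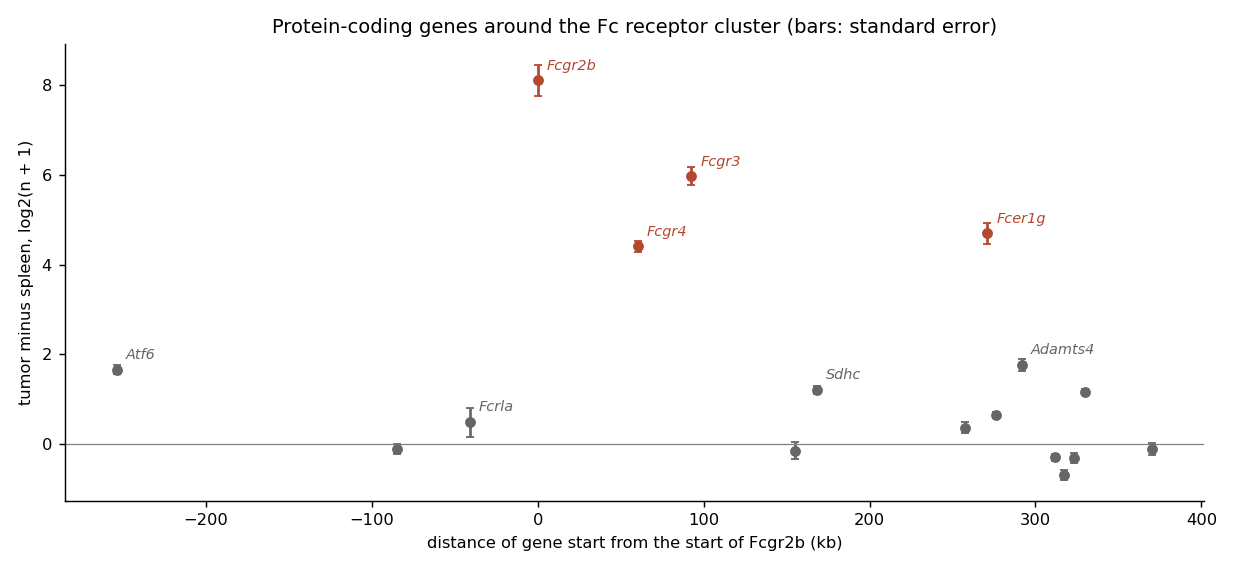
Tumor minus spleen differences of log2(n + 1) with standard errors are plotted against the distance in kb between the lower coordinate of each tested protein-coding gene and that of Fcgr2b, with the members in red. The 4 members lie between 4.41 and 8.11, and their neighbours lie between -0.69 and 1.77.

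Neighbouring receptor genes share sequence, which matters for reads assigned by pseudoalignment. Of the distinct 31-base words in the annotated transcripts of Fcgr3, 13.44% also occur in those of Fcgr2b, and 8.15% of the words of Fcgr2b occur in another gene. For Fcgr4 the share was 1.39%, for Syk 0.03%, and for Fcgr1, Fcer1g and Tyrobp 0. Exons of Fcgr2b also overlap those of the antisense model Gm38204 on the opposite strand by 155 bases, and the strand setting of the counting is not given in the sources used here. The longest coding stretch that Fcgr2b and Fcgr3 have in common is 129 bases, within chr1:170966674-170968081 for Fcgr2b and chr1:171054167-171057792 for Fcgr3, both on the minus strand. It is shown because a read that lies within it matches both genes.
Fcgr2b and Fcgr3, common stretch: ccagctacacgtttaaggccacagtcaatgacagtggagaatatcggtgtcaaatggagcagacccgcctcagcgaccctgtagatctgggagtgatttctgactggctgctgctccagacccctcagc

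Summing n over Fcgr2b, Fcgr3 and Fcgr4 avoids the question of how such reads were divided among these 3 genes where n is a count. Whether n was divided by transcript length is not known, and if it was, the sum still depends on how the reads were divided. The sum was higher in tumor by 6.42 on the log2 scale (standard error 0.205, adjusted p = 4.28e-11, limma with Benjamini-Hochberg adjustment).

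Promoter windows of the members were read from RefSeq on GRCm38.p6 as up to 250 bases before the start, without annotated exon bases. The promoters used held no entry for Tyrobp, so it was not searched. The letters GAGGAA, which contain the core bound by ETS family factors such as PU.1, and TTCNNNGAA, the letters of a STAT site, were searched on both strands. Both motifs were chosen after the members' values had been seen. GAGGAA occurred in 23.3% and TTCNNNGAA in 7.02% of 32851 windows of 250 bases, exon bases included. The members were searched without exon bases, so these shares are not a matched rate for them. With exon bases kept, GAGGAA also occurred in the windows of Fcgr3 and in a window of Syk. After exon bases were removed, 4 members had a window left, and of these Fcgr1 and Fcgr4 held GAGGAA on the opposite strand, at 55 to 50 and at 22 to 17 bases before the start, and that of Fcgr1 also held TTCNNNGAA at 109 to 101 bases before it. The windows left for Fcer1g, of 234 bases, and for Syk, of 221 bases, held neither motif. They are shown as the windows of 2 receptor genes on different chromosomes that rose together, at chr3:96293970-96294219 on the minus strand for Fcgr1 and chr1:171018676-171018919 on the plus strand for Fcgr4, with the opposite-strand match to GAGGAA in capitals. A match describes letters and not binding.
Fcgr1 promoter: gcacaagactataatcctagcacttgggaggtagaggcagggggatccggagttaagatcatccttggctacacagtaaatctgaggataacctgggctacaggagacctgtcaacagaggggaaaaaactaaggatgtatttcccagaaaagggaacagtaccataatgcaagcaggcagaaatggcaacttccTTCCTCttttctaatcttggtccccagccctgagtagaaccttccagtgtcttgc
Fcgr4 promoter: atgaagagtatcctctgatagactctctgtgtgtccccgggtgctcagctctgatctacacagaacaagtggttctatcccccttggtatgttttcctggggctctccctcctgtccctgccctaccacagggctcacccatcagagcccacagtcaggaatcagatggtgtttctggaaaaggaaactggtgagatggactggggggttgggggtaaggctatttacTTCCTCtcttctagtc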

How the data were processed

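RNA-seq of sorted Tregs gave 11 libraries, and labels gave each its tissue and genotype. The authors used kallisto with mm10 on single-end reads, passed the estimates through sleuth 0.30.0, summed them per symbol and deposited log2(n + 1) values. No kallisto version or annotation release is given in the sources used here. How n relates to the reads is not stated, although the methods give an approximate depth, so no counting interval is given. No rescaling was applied. limma 3.58.1 (R 4.3.3; lmFit, eBayes with trend) was fitted to the 13897 genes with a mean of at least 0.5, and 707 were left out. Genes with a Benjamini-Hochberg adjusted p below 0.05 were called. Genotype contrasts came from a cell-means model of all 11 libraries. Exact two-sided permutation tests used scipy 1.17.1. The fit was tested on simulated data. The members' rule uses symbols only, but members, lists and tests were chosen with earlier results of these data known. Named genes were the members, 3 reference genes, the 2 largest called rises and falls of each pathway list, the first 2 listed genes of each marker list and the 3 nearest genes by pattern. Annotation came from GENCODE M21. Alternatives changed scaling, pseudocount, filter, variance trend, correction, block and libraries. Some genes that these rules would name are not reported here.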

Additional observations from a re-analysis of the deposited data

Results flagged for a closer look

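In 26 sets of values, each of the 7 members and 6 within-library differences in spleen and in tumor, 4 libraries stood apart by Dixon's criterion, where chance gives about 1.3. For Tyrobp in tumor, WT replicate 1 was at 8.59 and the other 4 libraries were at 8.91 to 8.98. For Fcgr3 minus Fcgr2b in tumor, WT replicate 2 was at -0.59 and the others at -0.38 to -0.30. For Fcgr4 minus Fcgr2b in spleen, KO replicate 2 was at 0.13 and the others at 1.51 to 2.15. For Fcgr1 minus Fcgr2b in spleen, KO replicate 2 was at -1.65 and the others at -0.07 to 0.62. Both spleen values belong to the library with the highest Fcgr2b among the spleen libraries, and without it the tissue differences of these pairs were -3.98 and -3.15.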

How the results depend on the processing

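The tumor-against-spleen rise was called for 7 of 7 members under each of the 23 alternatives with genotypes pooled, with a largest adjusted p of 0.00414 for Syk under Bonferroni correction. Within one genotype Syk alone lost its call, under Bonferroni correction (3.21 in WT, adjusted p = 0.333, and 2.93 in KO, adjusted p = 1, limma). The unknown relation of n to reads and the low spleen values limit differences that involve Fcgr1 and Fcgr2b most.

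Bonferroni correction left 5051 called genes for the tissues, 2449 in WT and 1857 in KO, against 10971, 9794 and 9127. The interaction had 1 called gene with a pseudocount of 0.1. KO against WT in tumor had 0 called genes, in place of 1, with a pseudocount of 5, without a filter, under median centring, quantile normalization and the replicate block, and in tumor libraries alone. Leaving out each library gave 10614 to 10978 called genes for the tissues, 9093 to 9988 in WT, 7559 to 9360 in KO, 0 to 1 for the interaction, 0 in spleen and 0 to 2 in tumor between genotypes, and 7, 7, 7, 0, 0 and 0 members.

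Spleens came from the tumor-bearing mice themselves, but the labels do not say that equal replicate numbers mark 1 mouse, and the values gave no sign of it. Deviations from group means correlated at -0.13 to 0.04 over the 5 pairs, and 2 of 5 spleen libraries matched best the tumor library of their own number. With a replicate block the within-library shifts were -2.02 (Fcgr3 minus Fcgr2b), -3.58 (Fcgr4 minus Fcgr2b), -2.76 (Fcgr1 minus Fcgr2b), 3.72 (Syk minus Zap70) and 5.95 (Fcer1g minus Cd247), each at an adjusted p of 0.075 by exact sign-flip permutation, since 5 pairs allow no p under 0.0625. The block changed no call on a member in the limma fits. For KO against WT the block joined libraries of both genotypes by replicate number, and these cannot come from 1 mouse. There it is no check of a pairing. Left-out libraries gave -2.36 to -2.02, -3.98 to -3.58, -3.15 to -2.70, 3.68 to 4.12 and 5.83 to 6.16 for the same 5, and 0.21 to 0.45 for Tyrobp minus Fcer1g. The last was 0.40 without both spleen KO replicate 2 and spleen WT replicate 1.

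Uncalled genotype differences changed sign easily. With libraries left out in turn, the interaction ranged from -0.84 to 0.36 for Fcgr2b, -0.48 to 0.09 for Fcgr3, -0.27 to 0.09 for Fcgr4, -0.52 to 0.18 for Fcer1g, -0.73 to 0.33 for Tyrobp and -0.60 to 0.31 for Syk. KO minus WT in spleen ranged from -0.34 to 0.09 for Fcgr1, -0.51 to 0.68 for Fcgr2b, -0.14 to 0.42 for Fcgr3, -0.01 to 0.24 for Fcgr4, -0.19 to 0.51 for Fcer1g, -0.24 to 0.82 for Tyrobp and -0.22 to 0.69 for Syk. In tumor it ranged from -0.34 to 0.00 for Fcgr2b, -0.21 to 0.04 for Fcgr3, -0.17 to 0.19 for Fcgr4, -0.22 to 0.19 for Fcer1g, -0.03 to 0.17 for Tyrobp and -0.15 to 0.21 for Syk. Quantile normalization gave 0.00 for Fcgr3 and 0.06 for Fcer1g in tumor, and equal library totals 0.02 for Fcer1g. Without both high spleen libraries the interaction was 0.15 for Fcgr2b and 0.06 for Tyrobp, and KO minus WT in spleen 0.02 for Fcgr1 and -0.31 for Fcgr2b. Fcgr1 relative to the macrophage markers was -0.06 to 0.09 with a library left out, -0.07 without both, and -1.47 with a pseudocount of 5. For results that changed, the cause was not tested. Leaving out both high spleen libraries, and the marker-relative comparison itself, were chosen after seeing the data.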
